A study of Mus musculus with 2 samples.

Results

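The immunity-related GTPases (IRGs) are described here in the olfactory bulb of 1 odor-enriched mouse and 1 control mouse. The genes were taken by name, as Irgm1, Irgm2, Igtp, Iigp1, Tgtp1 and Gvin1, with no threshold on their values, but the family was chosen with earlier results of these arrays known. Of these 6 genes, 5 were named on the array, out of 37068 gene names in all. No probe carried the name Tgtp1. The single probe named Tgtp2 lists transcripts of both Tgtp2 and Tgtp1, so the pair cannot be told apart, and its values are given under Tgtp2.

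Bulb total RNA, from the first relay of smell in the brain, was read on Agilent one-colour mouse arrays, 1 for each animal. The odor-enriched mouse was kept under odor-enriched conditions and the control mouse under standard odor conditions, and the labels give no strain, genotype, age, sex, odorant or duration for either. The series is titled as a comparison of bulb RNA between odor-stimulated and control mice, which is the only question stated. With 1 array per group there was no spread between mice, no test between the groups was possible, and every difference compares these 2 arrays.

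IRGs are GTPases that cells make in large amounts after interferon, above all interferon gamma, and they act against parasites and bacteria that live in vacuoles inside the cell. The regulatory Irgm proteins sit on the cell's own membranes and hold the effector IRGs inactive there, while the effectors load onto the vacuole around a microbe, such as that of Toxoplasma, and break it open. Gvin1 belongs to a related family of very large interferon-inducible GTPases. In an uninfected brain these genes are usually expressed at low levels.

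All 5 members on the array rose in the odor-enriched bulb relative to the control bulb, by 3.62-fold for Irgm1 up to 16.9-fold for Iigp1. Their median difference was 3.0 log2 units, against 0.00 for all 23872 genes measured on both arrays. All 9 of their probes were well above background on both arrays and at least 2-fold higher. All 5 passed 1.5-fold, as did 21.2% of all measured genes. All 5 passed 2-fold, as did 11.5% of all measured genes, and all 5 passed 3-fold, as did 5.39%. A difference is the log2 processed signal of the odor-enriched array minus that of the control array, after each was scaled to its 75th percentile, so the fold is not the plain ratio of the 2 signals. Scaling on the E1A spike-in probes instead lowered every difference by the same amount and moved the median of all genes by -1.78. Every difference below that size therefore turns negative under it, and Irgm1 was then at 0.07.

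The regulators come first. Irgm1, which is needed to keep effectors off the cell's own membranes, had 4 probes on chromosome 11 (coordinates here and below are on mm9, as the files give them). The brightest, at chr11:48679069-48679128 on the minus strand, had a processed signal of 3140 in the odor-enriched bulb and 859 in the control bulb, a difference of 2.18. The probe at chr11:48679134-48679193 had 1514 in the odor-enriched and 461 in the control bulb, a difference of 2.03. The probe at chr11:48679632-48679691 had 449 in the odor-enriched and 141 in the control bulb, a difference of 1.98. These 3 probes lay within 0.20 log2 units of each other. The fourth probe, at chr11:48675495-48675554, was far dimmer, with 18.5 in the odor-enriched and 9.73 in the control bulb, and its difference was 1.24. It is annotated to an Ensembl transcript, and with it the mean of the gene was 1.86. The scanner software's own error was about 10% of the signal for the 3 brighter probes and 14.1% in the odor-enriched and 15.2% in the control array for the dim one. Over all measured genes, 972 (4.07%) had a difference at least as high as that of Irgm1, a count that here and below includes the gene itself.

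Irgm2, a regulator found on the Golgi, had 1 probe at chr11:58036064-58036123 on the plus strand. Its signal was 2883 in the odor-enriched bulb and 447 in the control bulb, an 8.00-fold difference. Igtp, the gene of Irgm3, a regulator on the endoplasmic reticulum and lipid droplets, lies next to it, with a probe at chr11:58020927-58020986. Its signal was 6813 in the odor-enriched bulb and 1214 in the control bulb, a 6.97-fold difference. The pair differed by 0.20 log2 units in their differences, which is less than the pooled SD of 0.63 between probes of the same gene (8234 genes).

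Among the effectors, Iigp1 (Irga6), which loads onto the vacuole of Toxoplasma, was the member with the highest difference, at 4.08. Its RefSeq probe at chr18:60552153-60552212 had a signal of 5731 in the odor-enriched bulb and 349 in the control bulb, a 20.4-fold difference. A second probe, at chr18:60538211-60538270, is annotated to a cDNA clone. It had 410 in the odor-enriched and 36.1 in the control bulb, a 14.1-fold difference, so both probes of the gene were higher by more than 10-fold. Only 58 measured genes (0.243%) had a difference at least as high.

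The Tgtp2 probe, at chr11:48871837-48871896 on the minus strand, reads the closely related genes Tgtp1 and Tgtp2, which encode Irgb6, an effector that arrives early at the vacuole. It had the highest signal among the probes of Irgm1, Irgm2, Igtp, Iigp1, Gvin1 and Tgtp2 in the odor-enriched bulb, 20029 against 1118 in the control bulb. This is a 22.2-fold difference, or 4.47 log2 units, and 37 measured genes (0.155%) were at least as high. Signals of different probes cannot be ranked as RNA levels, since each probe binds its target with its own strength.

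Gvin1, at chr7:113302432-113302491 on the minus strand, had a signal of 3406 in the odor-enriched bulb and 431 in the control bulb, a 9.80-fold difference. The probe also lists transcripts of Gm4070, a gene of the same family, and those genes cannot be told apart. In rising order of the differences, Irgm1 was followed by Igtp, Irgm2, Gvin1, Iigp1 and Tgtp2. The steps between Irgm1 and Igtp (0.94) and between Gvin1 and Iigp1 (0.79) exceeded the pooled SD between probes of a gene. With only its brightest probe Irgm1 was at 2.18 and Igtp at 2.80, a step that did not exceed it. That SD is for the difference of 1 probe, and a step between genes carries the spread of both, so the order is not firm. The steps between Igtp and Irgm2 (0.20), Irgm2 and Gvin1 (0.29) and Iigp1 and Tgtp2 (0.39) did not. For comparison, the pooled SD of the difference between repeat spots of 1 probe was 0.05 (300 probes).

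**Figure D1:**
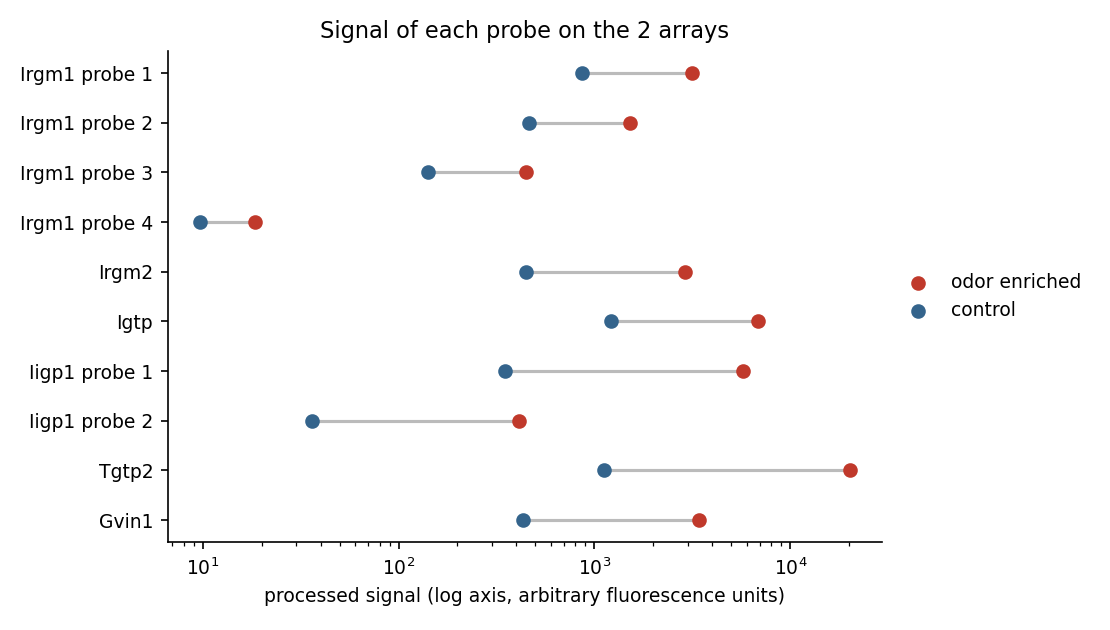
Processed signal of every probe of Irgm1, Irgm2, Igtp, Iigp1, Tgtp2 and Gvin1 (log axis, arbitrary fluorescence units), with 1 point for the odor-enriched and 1 for the control bulb. The odor-enriched point lies right of the control point for all 10 probes, from 18.5 against 9.73 for the dimmest Irgm1 probe to 20029 against 1118 for Tgtp2, and positions of different probes are not comparable as RNA levels.

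The other genes of the IRG family did not all follow. Of 13 further names, 11 were on the array and 8 were measured on both arrays, Tgtp2 among them. Of these 8, 4 passed 2-fold upward, against 11.5% of all genes, and 0 passed it downward, against 5.52%. Their median difference was 1.2. Gm12250 is the gene of Irgb10, an effector that attacks the membranes of vacuoles and bacteria. One of its probes had 1578 in the odor-enriched bulb and 59.3 in the control bulb, a 33.0-fold difference, and 20 measured genes were at least as high. The other had 111 in the odor-enriched bulb and was not well above background in the control bulb, which makes it at least 28.3-fold higher. Both probes of the gene were far higher in the odor-enriched bulb.

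Gm4951 was higher by 3.34, with its 2 probes at 3.60 and 3.08. Gm4841 was higher by 1.52 on a probe with an unusually bright signal, 70808 in the odor-enriched and 30625 in the control bulb, while its other probe was not well above background on either array. The 2 probes of that gene therefore disagree, and its value is uncertain. The remaining 4 measured genes stayed under 2-fold. The difference was 0.87 for 9930111J21Rik1, whose probes also list transcripts of Psme2b and Gm5431, and 0.57 for Gm5431. It was 0.00 for F830016B08Rik, with 3227 in the odor-enriched and 4000 in the control bulb before scaling. Irgq, the family member with a degenerate GTP-binding site, was at -0.43, with its 2 probes at 0.04 and -0.90. Irgc1, which is known for expression in the testis, and Gm12185 and 9930111J21Rik2 were not well above background on either array.

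A further 3 gene names of the family were added after the values had been seen. Ifi47, the gene of the effector Irgd, had 4369 in the odor-enriched bulb and 337 in the control bulb, a difference of 4.01. LOC630751 had 288 in the odor-enriched and 26.5 in the control bulb, a difference of 3.75. Iigp1b was not well above background on either array.

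The relatives of Gvin1 moved with it. Of 8 other names of the family, 3 were on the array. Gm1966 had 1110 in the odor-enriched and 99.7 in the control bulb, a difference of 3.79. Gm8995 had 671 in the odor-enriched and 68.7 in the control bulb, a difference of 3.60. Gm17757, whose transcripts RefSeq assigns to Gm18852 and Gm18853, had 27.2 in the odor-enriched bulb and was not well above background in the control bulb, so it was at least 6.94-fold higher. These genes are close copies of each other, so a probe may bind RNA of more than 1 of them.

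**Figure D2:**
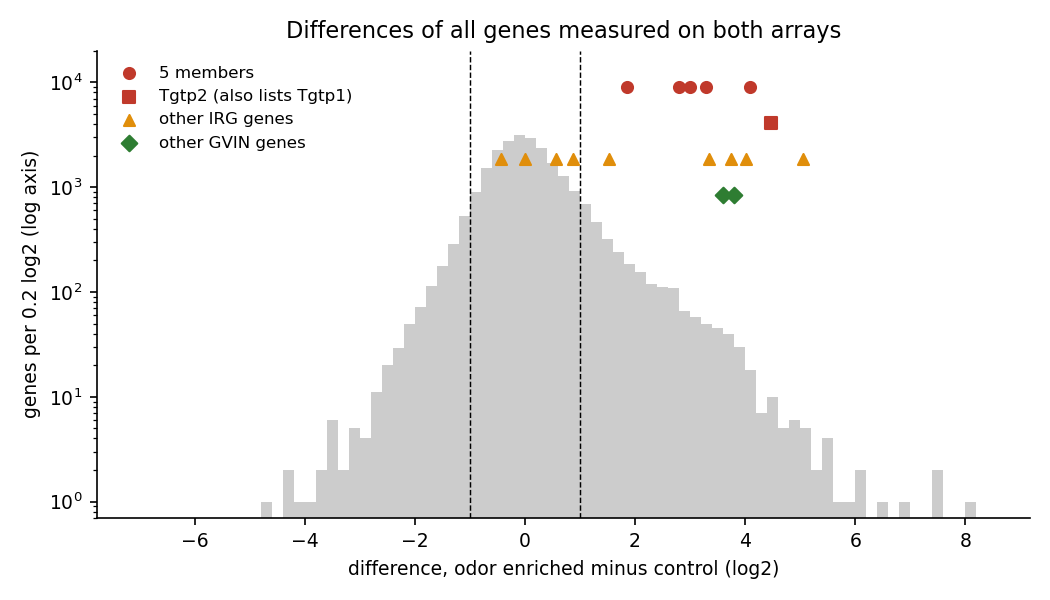
Histogram of the differences (odor enriched minus control, log2) of all genes measured on both arrays, with the number of genes per bin on a log axis and dashed lines at 2-fold, and with IRG and GVIN genes as points at arbitrary heights above it. The 5 members lie between 1.86 and 4.08, right of the dashed line, and under E1A scaling all points would shift left by 1.78 and Irgm1 would stand at 0.07.

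The promoters are shown because 4 of the 6 named members have an entry and because interferon acts through short DNA motifs there. Interferon gamma acts through the GAS motif, here TTCNNNGAA, and IRF proteins bind the ISRE, of which the core GAAANNGAA was searched. Both strands were searched, from 250 bases before to 50 bases after the annotated start, in RefSeq sequence of GRCm38.p6. The windows below are 5′ to 3′ on the strand of the gene, with motif letters in capitals, and the coordinates are on that build.
Irgm1, chr11:48871424-48871462, minus strand: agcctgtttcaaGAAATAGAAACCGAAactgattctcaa
Igtp, chr11:58199499-58199542, plus strand: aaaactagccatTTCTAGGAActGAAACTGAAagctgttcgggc
Irgm2, chr11:58214890-58214933, plus strand: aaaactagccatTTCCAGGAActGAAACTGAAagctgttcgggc
Tgtp1, chr11:48992303-48992346, minus strand: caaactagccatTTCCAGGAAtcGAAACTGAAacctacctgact
Tgtp2, chr11:49064262-49064305, minus strand: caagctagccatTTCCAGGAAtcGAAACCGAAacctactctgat

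Igtp, Irgm2, Tgtp1 and Tgtp2 each held 1 GAS followed, after 2 bases on the same strand, by 1 ISRE core. The GAS began 45 bases before the start in Igtp, 75 in Irgm2, 88 in Tgtp1 and 81 in Tgtp2. Irgm1 held no GAS letters in this window and 2 overlapping ISRE cores, beginning 30 and 24 bases before the start. Irgq, at -0.43, held neither motif, and 79.5% of all promoters of the same length belong to genes with neither. Windows of other IRG genes, among them the higher Gm12250 and Ifi47, are not shown. Of 32851 promoters of the same length, 8.30% held the GAS letters, 8.56% the ISRE core letters and 1.07% both. The arrangement of GAS and ISRE core at the spacing of these genes stood in 8 promoters (0.0244%), a spacing chosen because these genes have it. The 8 were those of Igtp, Irgm2, Tgtp1, Tgtp2 and Gm12185, all IRG genes, and of Adar, Olfr382 and LOC115488470. Adar, an RNA-editing enzyme, had a difference of 0.03, and Gm12185 was not well above background on either array. Among 139 measured genes with both motifs anywhere in the window, 24 (17.3%) were at least 2-fold higher, against 1300 of 13196 measured genes with any promoter entry (9.85%). The 24 include Igtp, Irgm2 and Tgtp2 themselves. The share was 14.1% for genes with the ISRE core letters and 11.6% for genes with the GAS letters. A part of these motifs in the differences was not tested. Over bases aligned without a gap, Igtp and Irgm2 were identical at 244 of 265 (92.1%), and Tgtp1 and Tgtp2 at 219 of 272 (80.5%). Against Irgq the same count gave between 56.4% (Tgtp1) and 64.6% (Irgm2).

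**Figure D3:**
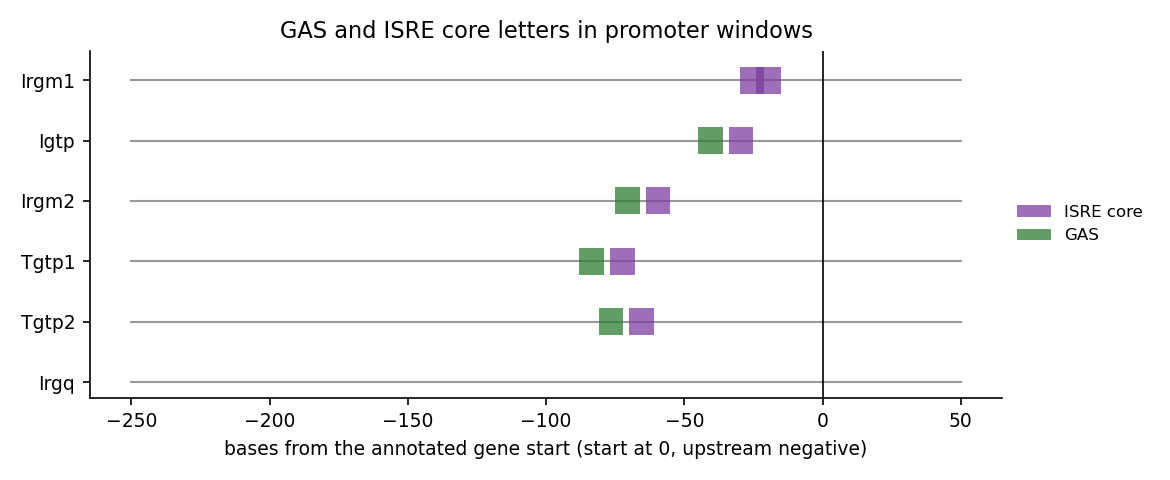
GAS (TTCNNNGAA) and ISRE core (GAAANNGAA) letters in the promoter windows of 6 IRG genes, by distance in bases from the annotated start, upstream negative. GAS and ISRE core stand side by side in Igtp, Irgm2, Tgtp1 and Tgtp2, Irgm1 has 2 overlapping ISRE cores, and Irgq has neither.

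The IRG genes on chromosome 11 lie in 2 clusters among unrelated genes. Within 250 kb of the clusters, 8 of 10 IRG genes were measured and 6 were at least 2-fold higher (11.5% over all measured genes). Their median difference was 2.90, with a range of 0.57 to 5.05. The 6 include Ifi47, at 4.01, a name added after the values had been seen. By the earlier lists Ifi47 would have counted among the other genes. Of 40 other genes in the same stretches, 26 were measured, 0 were at least 2-fold higher and 1 was at least 2-fold lower, with a median of 0.04. The highest of them was the odorant receptor gene Olfr1394, at 0.89. Psme2b, a proteasome activator gene whose transcripts share a probe with 9930111J21Rik1, was at 0.58, and Larp1, an RNA-binding protein gene, at -0.56.

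The interferon gamma pathway upstream of the IRGs was higher at some steps. All 14 genes of the pathway were measured, 5 passed 2-fold upward and 0 downward, and their median was 0.39. Over all measured genes 11.5% passed upward and 5.52% downward. Ifng, the interferon itself, made by T cells and NK cells, had the highest difference of all measured genes, 8.00. Its level relative to the 75th percentile was 3.91 in the odor-enriched and -4.10 in the control bulb. It has 1 probe, which was dim in the control bulb, where the lowest level well above background was -5.69. The size of its difference is therefore uncertain. The transcription factor gene Irf1 was at 2.21, the inhibitor gene Socs1 at 1.72, and Stat2, which serves type I interferon, at 1.35. The receptor genes Ifngr1 and Ifngr2 were at 0.59 and 0.27, and the kinase genes Jak1 and Jak2 at 0.14 and 0.29, all under 2-fold. Irf8, a macrophage and interferon factor, was at 0.07 and the inhibitor Socs3 at -0.05. Under E1A scaling only 1 of the 14 was at least 2-fold higher, against 1.52% of all measured genes under that scaling.

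The guanylate-binding proteins, larger GTPases that act on the same vacuoles, were mostly higher. Of 10 measured, 9 passed 2-fold upward, against 11.5% of all measured genes, and 0 downward, against 5.52%, with a median of 2.88. The 9 include Gbp5, whose 2 probes disagree, at 0.34 and 4.85. Gbp11 was at 6.11 and Gbp8 at 5.69, and Gbp10 was the lowest of the 9, at 1.22. Gbp8 was dim in the control bulb, at a level of -4.34, so the size of its difference is uncertain. Gbp9 was at -0.81. Gbp2b was not well above background in the control bulb and had at least 25.0-fold more signal in the odor-enriched bulb. The count was 5 under E1A scaling, which left 1.52% of all measured genes at least 2-fold higher.

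Genes used as readouts of type I interferon were higher in part. Of 10, 3 were at least 2-fold higher, against 11.5% of all measured genes, with a median of 0.86, and the count was between 0 and 6 over the processing settings. Rsad2, which blocks viral replication, was at 2.17, Mx1 at 1.51 and Oas1a at 1.31. Ifit3 was at 0.11 and Usp18 at 0.23. The ATG conjugation machinery, which is needed for IRGs to act on vacuoles, was close to the median of all genes. Of its 12 genes, 0 passed 2-fold upward (11.5% over all measured genes) and 1 downward (5.52%), with a median of 0.03. That gene was Gabarapl1, at -1.02, and the next lowest was Map1lc3a, at -0.70. The highest were Atg16l1 at 0.52 and Map1lc3b at 0.39. Among 8 factors of vacuole ubiquitination and damage, 1 was at least 2-fold higher (Trim21, a ubiquitin ligase and antibody receptor, at 1.15), a share close to the 11.5% of all measured genes, with a median of 0.22. Lgals3, which binds damaged vacuoles, was at 0.43, and the autophagy receptors Optn and Tax1bp1 at -0.30 and -0.40. Constitutive dynamin-like GTPases, which do membrane work without interferon, had 0 of 10 past 2-fold upward (11.5% over all genes) and 1 downward (5.52%), with a median of -0.05. Mfn1, a mitochondrial fusion GTPase, was at -1.16 and Atl1 at -0.61, while Atl2 and Atl3, which shape the endoplasmic reticulum, were at 0.72 and 0.59.

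**Figure D4:**
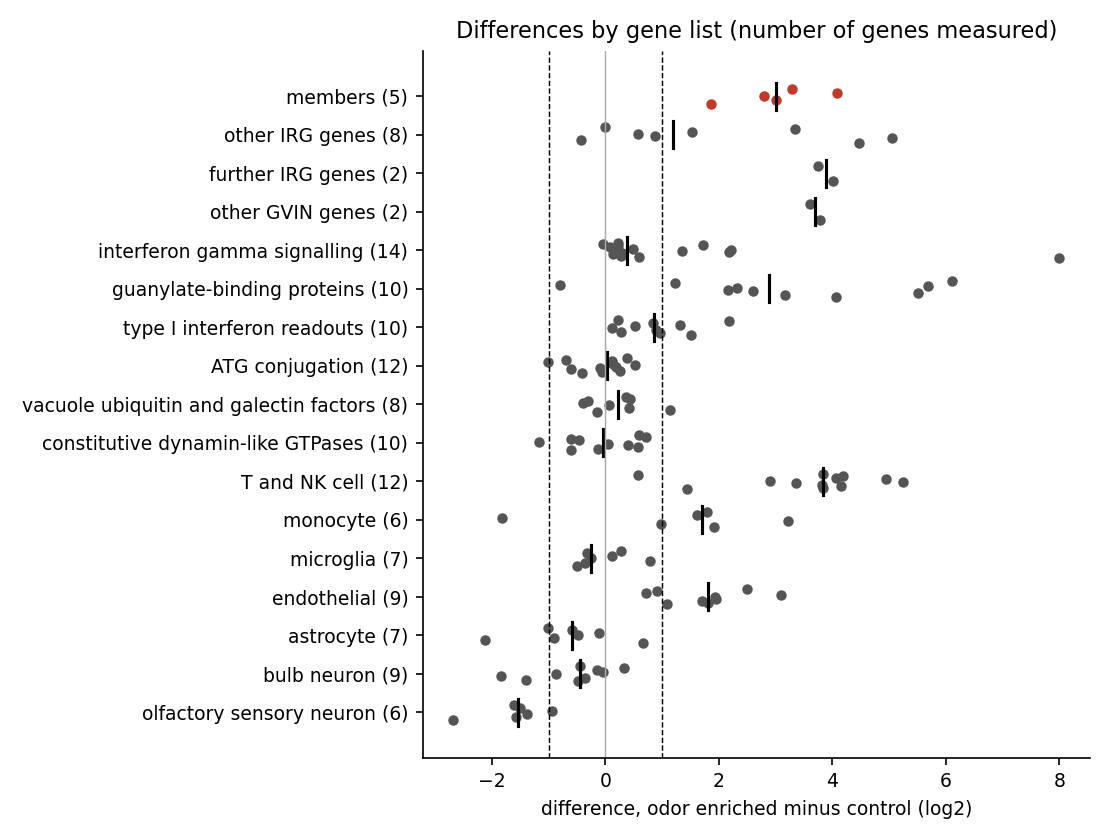
Differences (odor enriched minus control, log2) of the measured genes of each list, 1 point per gene, with the median as a black bar and dashed lines at 2-fold. The 5 members, the guanylate-binding proteins and the GVIN genes lie mostly right of the upper line, with Gbp9 at -0.81 as an exception, while ATG conjugation and constitutive dynamin-like genes scatter around 0, and all points shift left by 1.78 under E1A scaling.

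Markers of other cells moved with the IRGs. In bulk tissue, more cells of a type and more RNA per cell cannot be told apart. Of 12 T and NK cell markers, 11 were at least 2-fold higher, against 11.5% of all measured genes, with a median of 3.83, and their summed signal was 9112 in the odor-enriched and 1003 in the control bulb. All 12 were well above background on both arrays, but some were dim in the control bulb. Cd8a was there at a level of -5.40 and Il2rb at -4.24, where the lowest level well above background was -5.69. Others were brighter, such as Cd3e at -1.18. The size of the differences of the dim markers is therefore uncertain. Of 6 monocyte markers, 4 were at least 2-fold higher (11.5% of all measured genes). Only 1, Chil3 at -1.83, was at least 2-fold lower (5.52%). Their summed signal was 33768 in the odor-enriched and 12728 in the control bulb. Most of it came from the probe of Ly6c2, at a level of 7.12 in the odor-enriched and 5.21 in the control bulb. Of 9 endothelial markers, 7 were at least 2-fold higher, against 11.5% of all measured genes. Their summed signal was 38707 in the odor-enriched and 14497 in the control bulb. Microglia markers had 0 of 7 past 2-fold upward, against 11.5% of all measured genes, and 0 downward, against 5.52%. Their median was -0.26. The part of these markers' cells in the result was not tested. Neuronal and astrocyte markers lay lower. Of 9 bulb neuron markers, all above background on both arrays, 2 were at least 2-fold lower (median -0.45), against 5.52% of all measured genes. Of 6 olfactory sensory neuron markers 5 were at least 2-fold lower (median -1.54), against the same 5.52%. Of 7 astrocyte markers, 0 were at least 2-fold higher and 2 were at least 2-fold lower (median -0.60), against 5.52% of all measured genes. The labels call the tissue neurons of the bulb, but markers of T cells, monocytes, endothelium and microglia were present on both arrays.

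The 2 arrays also differed technically. The share of spots well above background was 67.6% in the odor-enriched and 73.7% in the control array, and the median local background was 22 in the odor-enriched and 17 in the control array. The 75th percentile over spot signals was 277 in the odor-enriched and 355 in the control array. No spot was saturated. The median difference of the spots around each member probe and the Tgtp2 probe lay between -0.02 and 0.40, below every probe's own difference, and the dimmest Irgm1 probe had the highest of these values. Leaving out bright patches dropped only spots whose surroundings differed by more than 1.2. No member spot met this limit, so that setting says nothing of the members.

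**Figure D5:**
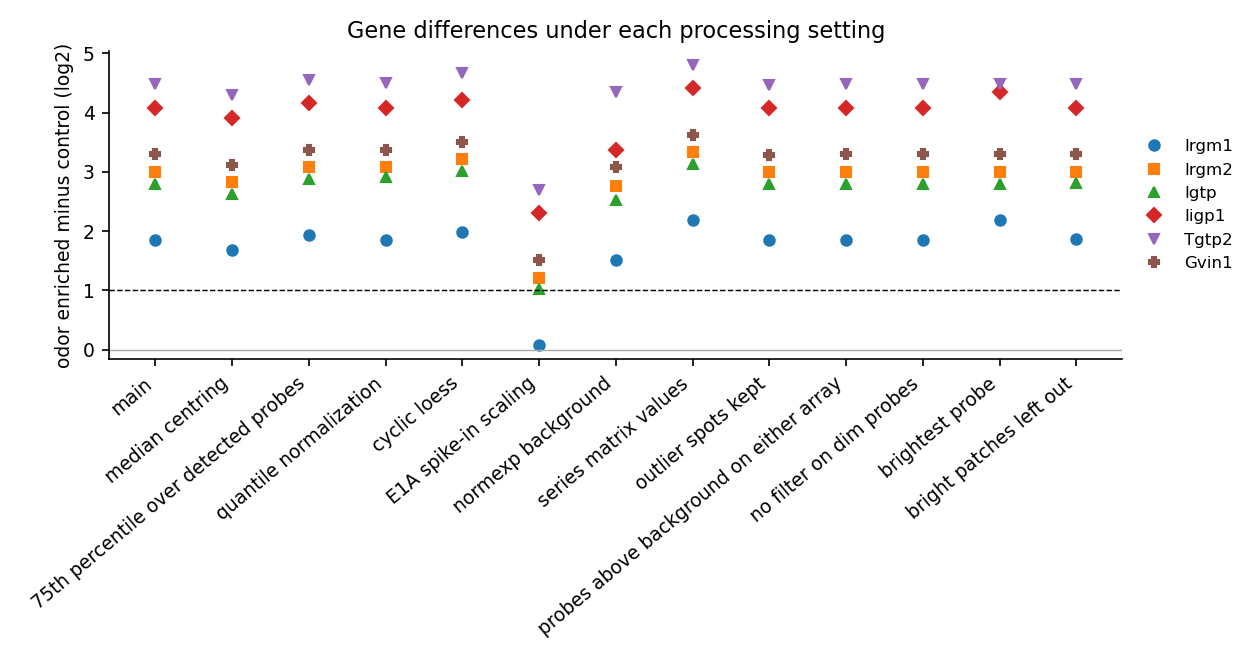
Difference (odor enriched minus control, log2) of 6 genes under the processing settings, with a dashed line at 2-fold. All 6 lie above the line except Irgm1 under E1A scaling, at 0.07.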

How the data were processed

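RNA of 1 odor-enriched and 1 control olfactory bulb was measured on 1 array each. Per the file headers, the scans were read by Agilent Feature Extraction (version 11.5.1.1). Its processed signal, as deposited, is a background-subtracted intensity with no scaling across arrays. The authors' series matrix, also deposited, is on a log2 scale and was compared with the log2 processed signal minus 1 constant per array (13.8 for odor enriched and 14.5 for control). The values matched within 0.01 for 100% of odor-enriched but only 91.7% of control probes. The origin of the constant and the centring are not stated, and the matrix medians were -8.98 for odor enriched and -9.48 for control, so the matrix served as an alternative. Direction was taken from the labels.

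Spots with outlier flags (183 in odor enriched and 122 in control) were dropped. Log2 signals were averaged per probe and the array's 75th percentile was subtracted. A gene's value averages the probes that stood well above background on each array. For a probe well above background on 1 array only, a bound was computed against the higher of the other array's lowest signal well above background and the probe's own. Probe annotation is that of the files, on mm9, and no exon or UTR was assigned. The named genes were the 6 members, the measured other IRG and GVIN genes, the 2 highest and 2 lowest of each pathway list, Ifng, Irf1, Irf8 and the 5 genes nearest the members' median. Other genes were named after their values were seen, and 1 gene of the rule is not reported here. The members and lists were chosen with earlier results of these data known. Alternatives are given in the closing section. The number of arrays limits the precision. The scaling and the gene averages were tested on simulated data, with less spread between probes of a gene than in these arrays. The outlier flags, background filter, spot averaging, bounds and promoter search were not tested so. Python 3.11.15, numpy 2.4.6, pandas 2.3.3, matplotlib 3.10.9, R 4.3.3 and limma 3.58.1 were used. Promoters came from RefSeq, GRCm38.p6, with 1 promoter entry for 4 of 6 members.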

Additional observations from a re-analysis of the deposited data

How the results depend on the processing

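No paired analysis was possible because each group has 1 array, and no replicate could be left out. All alternatives kept the 5 members at least 2-fold higher except E1A spike-in scaling, which left 4, with Irgm1 at 0.07. Some of these alternatives could hardly alter the members. Their probes all passed the filter on both arrays, so looser filters left their values unchanged. Leaving out bright patches removed none of their spots, and using the brightest probe could change only Irgm1 and Iigp1. Over 14 settings the count was 4 to 5, and over 12 the median difference was 1.22 to 3.33, the lowest under E1A scaling. That scaling also gave Iigp1 2.30, Igtp 1.02, Irgm2 1.22, Gvin1 1.51 and Tgtp2 2.69. It left 5 guanylate-binding proteins, 1 interferon gamma pathway gene and 0 type I readouts at least 2-fold higher. Over all measured genes the share under it was 1.52%. The type I count was 6 under cyclic loess, where 11.7% of all measured genes passed, and 6 with the series matrix values, where 18.7% passed. It was 6 at 1.5-fold (21.2% of all measured genes) and 1 at 3-fold (5.39%). The dynamin-like count was 1 with the series matrix and 2 at 1.5-fold, where 21.2% of all genes passed. Normexp gave Iigp1 3.38. The cause was not tested.

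The median of all genes moved by -0.17 under median centring, 0.33 with the series matrix, 0.21 with no filter and -1.78 under E1A scaling. The genes at least 2-fold higher numbered 2747 (67.6% of those past 2-fold in either direction), but 2136 under median centring (50.9%), 362 under E1A scaling (1.77%), 1256 under normexp, 4466 with the series matrix (88.5%), 9379 with no filter (80.3%) and 3231 with the filter on either array (57.6%). Dim probes, such as the fourth Irgm1 probe, carry the largest error.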

Other observations

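The genes whose difference lay closest to the members' median of 3.0, found over these 2 arrays only, were Vcam1 (2.99), an adhesion molecule of activated endothelium, Crb1 (2.98), Ly6g (3.03), a neutrophil marker, Ifna11 (2.97), a type I interferon gene, and H2-Q8 (3.06), a class Ib MHC gene. Their levels relative to the 75th percentile were 3.03 in the odor-enriched and 0.04 in the control bulb for Vcam1, and 5.40 in the odor-enriched and 2.34 in the control bulb for H2-Q8. Many genes lie near any given value, and closeness over 2 arrays says nothing of a shared control.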
